A study of Mus musculus with 18 samples.

Results

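45 genes were expressed in parental WEHI-231 cells and low in every library of a pair of clones with mutant Tfeb, #A-59 and #B-20 (written without the # below). They were chosen by the values themselves. A gene was taken if it reached at least 1 CPM (counts per 1000000 counts of the library) in all 6 parental libraries, and if its highest CPM over the 12 mutant libraries was at most 50% of its lowest parental CPM. Of 55487 genes in the tables, 11528 met the first condition and 50 met both, which is 0.434% of the 11528. Tfeb, the MHC class II genes and a few named genes were left out by the rule, which removed Bcl2l15, Ripk3, Smad1, Tnfrsf22 and Tnfrsf8 and left 45 members. The difference between mutant and parental cells is therefore a description of the choice and was not tested. The same rule turned around gave 35 genes high in every mutant library.

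WEHI-231 is a mouse line of immature B lymphoma cells that carries an IgM B cell receptor (BCR). Parental cells, A-59 and B-20 were each left untreated (0 h) or given F(ab')2 fragments of an antibody to mouse IgM, at 10 µg/ml, for 6 h or 18 h, with 2 libraries in each of the 9 groups. The mutants were made by electroporating Cas9 ribonucleoprotein with guides against exon 3 or exon 5 of Tfeb, and each was grown from 1 cell. No line that had been cloned with Tfeb intact was included here, so an effect of the Tfeb mutation and a difference fixed in a founder cell cannot be told apart. The parental line stands in all comparisons as an uncloned population.

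TFEB is a basic helix-loop-helix leucine zipper transcription factor of the MiT/TFE family, which is held in the cytoplasm by phosphorylation and enters the nucleus when it is dephosphorylated. It binds E-box DNA with a central CACGTG, in lysosomal genes often within the longer CLEAR motif, and is best known for driving genes of lysosomes and autophagy. In B cells, cross-linking of the BCR sets off kinase cascades, calcium release and PI3K signalling, and long stimulation of WEHI-231 cells ends in growth arrest and death.

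Library totals were 11223588 to 29655262 counts with a median of 19846544. Tfeb itself, the check of the labels, stood at 79.4 to 99.6 CPM in parental cells, at 25.1 to 40.1 in A-59 and at 34.0 to 53.7 in B-20, with no overlap between parental and mutant libraries. Transcript was left in both clones, and its level does not show whether functional protein was made. The sample labels call both clones TFEB KO, and the study describes them as TFEB-deficient. All 8 B cell markers (among them Cd79a, Pax5 and Ighm) were at 1 CPM or more in every library, and all markers of T cells (6), NK cells (3) and erythroid cells (3) were below 1 CPM in every library. The summed level of 6 myeloid markers was 3.28 to 12.5 CPM in parental and 3.37 to 29.4 CPM in mutant libraries, and that of 4 plasma cell markers 201 to 363 CPM and 153 to 286 CPM. The part of these markers in the results was not tested. In bulk RNA, fewer cells that express a gene and less RNA in each cell cannot be told apart.

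By annotation 35 members were protein-coding, 3 were long non-coding RNAs, 2 were immunoglobulin constant regions, 4 were pseudogenes of different classes and 1 was an unverified transcript model. Together the members took 0.160% to 0.255% of the counts of a parental library and 0.0187% to 0.0245% of a mutant library. The depth of the reduction ranged widely. The highest mutant value was under 10% of the lowest parental value for 12 members, between 10% and 30% for 15 and between 30% and 50% for 18, with a median of 21.5%. Over all 11528 genes the median of this ratio was 165%.

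**Figure D1:**
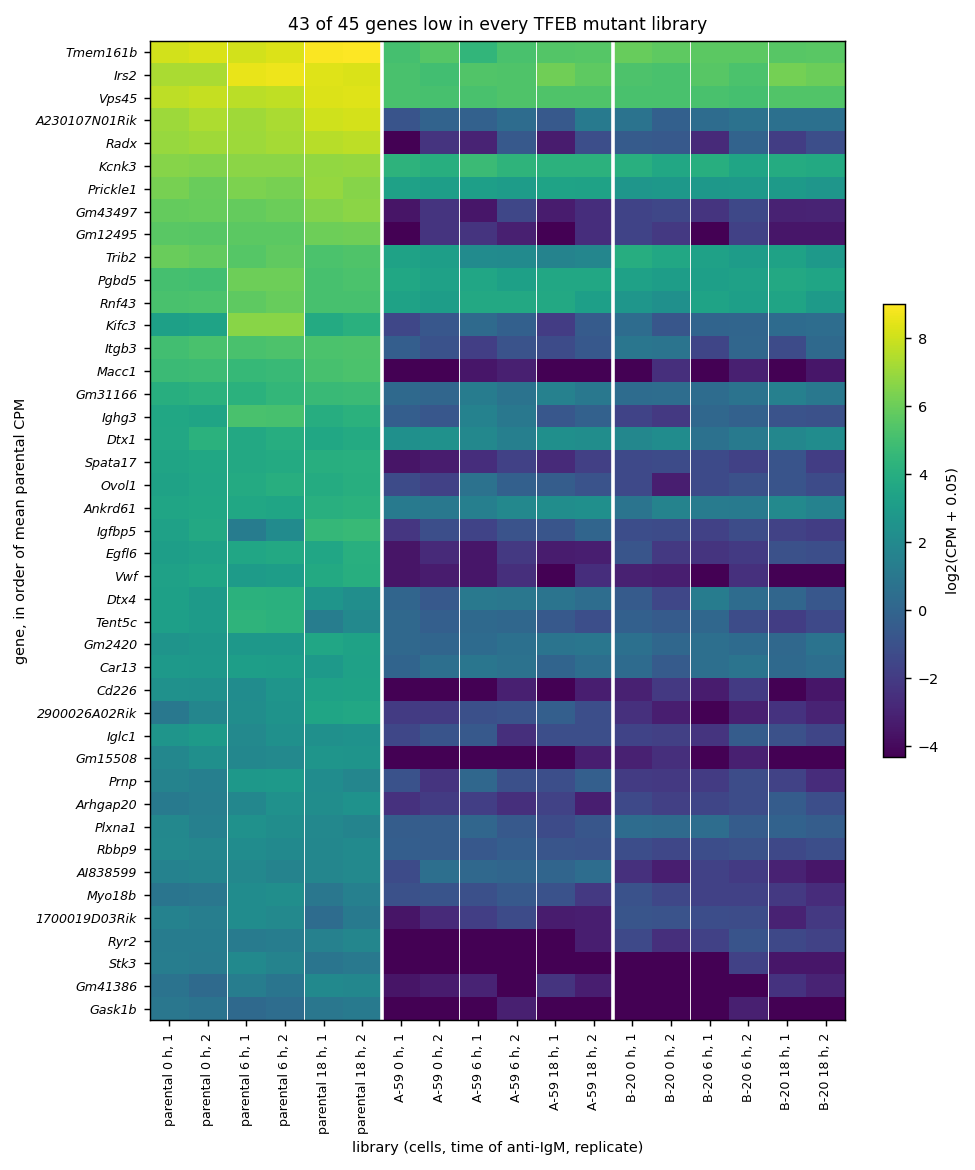
Level of 43 of the 45 members (rows, ordered by mean parental CPM) in each of the 18 libraries (columns, by cells, hours of anti-IgM and replicate), as log2 of CPM plus 0.05. Yellow is high and dark purple low, and white lines separate parental, A-59 and B-20 libraries and the times. The 6 parental columns are brighter than the 12 mutant columns in every row, as the rule requires, while Irs2 and Tmem161b kept visible levels in the mutants and Macc1, Cd226 or Gask1b did not.

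Promoter windows from RefSeq (assembly GRCm38.p6, 250 bases before to 50 bases after an annotated start) were given for 22 of the 45 members. CACGTG stood in the windows of Irs2 and Radx, 2 of 22 members (9.09%), compared with 12.04% of 8598 expressed genes and 8.09% of all 27025 genes. This motif reads the same on both strands. With the next base of the longer motif on either side (TCACGTG or CACGTGA), it stood in 1 of the 22, Irs2, or 4.55%, compared with 7.25% of the expressed and 4.29% of all genes. The full CLEAR motif, a palindrome of 10 bases that contains the shorter forms, stood in the windows of 0 of these 22 members and in 0.907% of the expressed and 0.370% of all genes. The shares in the members were near those of other genes. The windows of Irs2 (chr8:11008880-11009179, minus strand, first motif base at -44 from the start) and Radx (chrX:139480117-139480416, plus strand, at -128) are shown because they hold the motif, which is in capitals. The window of Radx was chosen for printing after its values were seen.
Irs2: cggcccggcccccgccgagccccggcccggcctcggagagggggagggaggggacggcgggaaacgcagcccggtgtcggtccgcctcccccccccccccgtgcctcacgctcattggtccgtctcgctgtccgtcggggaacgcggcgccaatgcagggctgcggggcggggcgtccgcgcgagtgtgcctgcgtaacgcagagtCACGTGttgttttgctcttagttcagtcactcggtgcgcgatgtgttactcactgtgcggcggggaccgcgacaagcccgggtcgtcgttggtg
Radx: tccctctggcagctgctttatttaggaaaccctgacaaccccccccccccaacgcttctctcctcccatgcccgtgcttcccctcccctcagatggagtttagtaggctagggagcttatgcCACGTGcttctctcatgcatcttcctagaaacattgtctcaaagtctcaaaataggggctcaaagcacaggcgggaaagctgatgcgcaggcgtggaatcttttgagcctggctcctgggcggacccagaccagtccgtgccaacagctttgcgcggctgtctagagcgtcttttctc

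Another window is shown, likewise chosen after values were seen, because it lies between 2 members. A230107N01Rik, a long non-coding RNA, and Tmem161b, which encodes a multipass membrane protein, start on opposite strands of chromosome 13, with 120 bases between their annotated starts (84222175 on the minus and 84222296 on the plus strand, GRCm38). The window of A230107N01Rik (chr13:84222126-84222425, minus strand) covers this stretch, which is in capitals, and holds no CACGTG.
A230107N01Rik: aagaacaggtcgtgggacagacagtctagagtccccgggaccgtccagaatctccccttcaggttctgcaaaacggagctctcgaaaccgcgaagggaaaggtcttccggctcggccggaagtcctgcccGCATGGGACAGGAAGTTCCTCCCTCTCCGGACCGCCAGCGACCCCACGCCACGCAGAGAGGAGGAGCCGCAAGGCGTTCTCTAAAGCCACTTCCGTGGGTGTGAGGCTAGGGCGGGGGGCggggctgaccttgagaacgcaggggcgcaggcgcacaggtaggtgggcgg

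The divergent pair gave some of the largest read numbers among the members. Tmem161b (chr13:84222296-84295966) measured 280 and 309 CPM in the parental libraries at 0 h, 279 and 315 at 6 h, then 488 and 519 at 18 h. In A-59 its 6 libraries lay between 21.9 and 45.8 CPM with a median of 40.1, and in B-20 between 47.1 and 59.9 with a median of 50.1. A230107N01Rik (chr13:84219581-84222175) measured 135 and 167 CPM at 0 h, 137 and 158 at 6 h, then 267 and 288 at 18 h in parental cells. It ranged from 0.506 to 2.15 CPM (median 0.881) in A-59 and from 0.789 to 1.67 (median 1.47) in B-20. Both members of the pair were highest in the parental 18 h libraries, and neither clone overlapped the parental range. The residual level differed between them: the highest mutant value was 21.5% of the lowest parental value for Tmem161b and 1.59% for A230107N01Rik.

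Irs2 (chr8:10984681-11008929) encodes the insulin receptor substrate 2 adaptor, which couples insulin, IGF-1 and IL-4 receptors to PI3K. Its parental libraries held 160 and 162 CPM at 0 h, 377 and 410 at 6 h, then 325 and 312 at 18 h. A-59 ranged from 31.7 to 68.9 CPM (median 41.6) and B-20 from 35.9 to 74.8 (median 43.5). Its reduction was among the shallower ones, at 46.6% by the extremes, since the highest mutant library (B-20 at 18 h) was compared with the lowest parental library at 0 h. Irs1, the other widely expressed member of the family, was named after values were seen and was at 0.0891 CPM or less in every library.

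Vps45, Radx and Kcnk3 followed in read number. Vps45 (chr3:95999832-96059661), a Sec1/Munc18 protein that assembles SNARE complexes for fusion at endosomes, measured 205 and 227 CPM at 0 h, 201 and 214 at 6 h, then 314 and 328 at 18 h in parental cells. It lay between 34.8 and 41.0 CPM (median 38.5) in A-59 and between 33.4 and 42.8 (median 36.7) in B-20. The 12 mutant libraries formed a narrow band whatever the clone or time. Radx (chrX:139480367-139554584), whose protein binds single-stranded DNA at replication forks, measured 123 and 136 CPM at 0 h, 135 and 149 at 6 h, then 194 and 208 at 18 h. The A-59 libraries held 0 to 10 Radx reads and the B-20 libraries 2 to 14, compared with 2179 to 4028 reads in a parental library. Kcnk3 (chr5:30588170-30625270), the potassium leak channel TASK-1, measured 95.8 and 88.7 CPM at 0 h, 102 in both libraries at 6 h, then 115 and 119 at 18 h. It kept 16.3 to 27.4 CPM (median 19.6) in A-59 and 11.6 to 17.1 (median 14.4) in B-20, clear of the parental range.

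Prickle1 (chr15:93499111-93596266), a LIM-domain protein of planar cell polarity, measured 77.9 and 62.7 CPM at 0 h, 85.1 and 77.6 at 6 h, then 120 and 98.1 at 18 h in parental cells. Its A-59 libraries lay between 8.21 and 10.8 CPM (median 9.65) and its B-20 libraries between 6.39 and 7.57 (median 6.93). All 6 B-20 libraries were thus below all 6 A-59 libraries. Trib2 (chr12:15791725-15816962), a Tribbles pseudokinase that targets substrates for degradation, went the other way over time, with 61.7 and 56.2 CPM at 0 h, 44.9 and 54.2 at 6 h, then 37.2 and 40.1 at 18 h. It lay between 3.08 and 10.4 CPM (median 4.19) in A-59 and between 7.45 and 16.1 (median 10.0) in B-20.

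Besides A230107N01Rik, the 10 members with the highest mean parental CPM held a pair of poorly known transcripts. Gm43497, the unverified model, measured 58.2 and 59.5 CPM at 0 h, 58.8 and 64.2 at 6 h, then 94.6 and 102 at 18 h in parental cells, and 1 to 5 reads in any mutant library. Gm12495, a processed pseudogene, measured 49.5 and 47.2 CPM at 0 h, 50.01 and 51.2 at 6 h, then 67.5 and 71.0 at 18 h, and 0 to 4 reads in any mutant library. Among its closest relatives by sequence was the ribosomal protein gene Rpl23a, with 76.0% identity over 98.0% of the pseudogene's 447 bases. Rpl23a itself was at 0.298 to 1.64 CPM over all libraries.

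The lowest ratio of all belonged to Macc1 (chr12:119390398-119466934), a regulator of transcription of the receptor tyrosine kinase Met. It measured 27.1 and 28.3 CPM at 0 h, 24.6 and 26.2 at 6 h, then 35.0 and 38.3 at 18 h in parental cells, which is 393 to 746 reads. Its 6 A-59 libraries held 2 reads in all and its 6 B-20 libraries 4 reads. The 5 lowest ratios were those of Macc1 (0.494%), Gm43497 (0.546%), Gm12495 (0.565%), Radx (0.724%) and A230107N01Rik (1.59%). Vwf, which encodes the von Willebrand factor of endothelial cells and platelets, came next at 1.60%, with 7.94 to 16.3 CPM in parental cells and at most 2 reads in a mutant library.

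5 members never exceeded 3 reads in a mutant library: Macc1, Vwf, Gm15508, Gask1b and Cd226. Cd226 (the activating receptor DNAM-1, best known on T and NK cells) measured 4.42 to 10.2 CPM in parental cells, while all T and NK cell markers were below 1 CPM. Stk3, which encodes the Hippo pathway kinase MST2, stood at 1.78 to 4.01 CPM in parental cells and had 0 reads in all 6 A-59 libraries, which at the 3 reads that a count of 0 allows is a level of up to 0.101 to 0.184 CPM by library. Its B-20 libraries held 6 reads in all. Stk4, its close relative, chosen after values were seen, was at 289 to 492 CPM in parental and at 279 to 505 CPM in mutant libraries, with overlapping ranges. Gask1b, a Golgi-associated kinase, was the least abundant member, with 1.12 to 2.12 CPM in parental libraries and 0 reads in 10 of 12 mutant libraries. Counting error alone is covered by these limits.

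**Figure D2:**
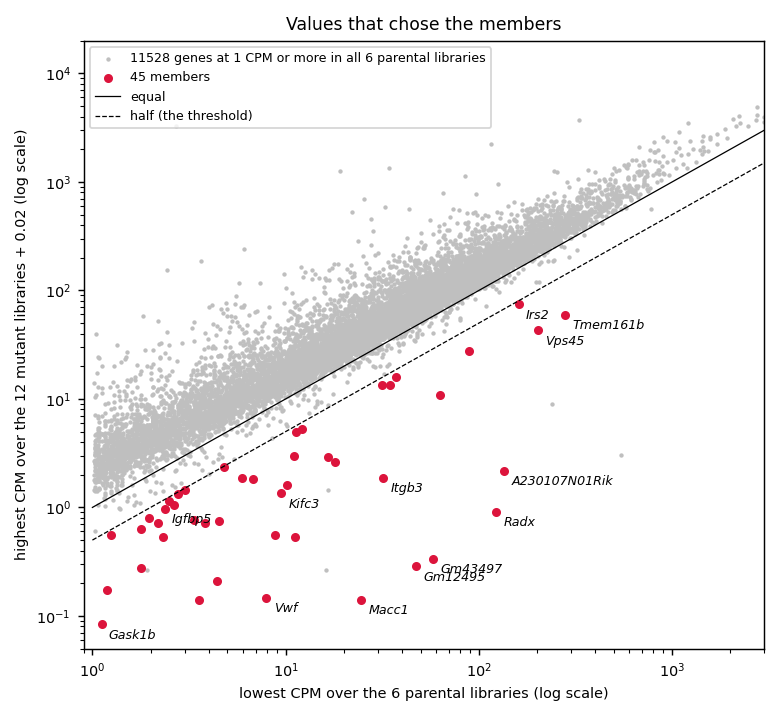
Lowest CPM over the 6 parental libraries (horizontal, log scale) against the highest CPM over the 12 mutant libraries plus 0.02 (vertical, log scale) for the 11528 genes at 1 CPM or more in all parental libraries (grey) and the 45 members (red). The solid line marks equality and the dashed line 50%, and grey points below the dashed line are the genes left out by name. The members reach from Dtx4 at 48.8%, next to the line, to Macc1 at 0.494%.

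At the threshold, the 3 members just inside were Dtx4 (48.8%), AI838599 (47.3%) and Plxna1 (47.1%), and the 3 genes just outside were Gm49223 (50.1%), Bdh1 (50.9%) and 5830418P13Rik (51.4%). Gm49223 lies within Tmem161b. In parental cells Dtx4 measured 9.43 and 7.57 CPM untreated, 18.6 and 17.4 at 6 h, then 6.24 and 4.81 at 18 h, so its lowest library was one after long stimulation. Plxna1 measured 3.70 and 2.76 CPM untreated, 5.35 and 4.66 at 6 h, then 3.74 and 3.15 at 18 h. The lowest parental values of these 6 genes were between 2.76 and 8.46 CPM. For reference, 2.29% of the 11528 genes had every mutant library below every parental library, whatever the distance, and 1.18% had every mutant library above.

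Several members belong to receptor signalling pathways. Dtx1 and Dtx4 encode Deltex ubiquitin ligases that act on Notch. Dtx1 was at 12.1 to 18.3 CPM in parental cells, 2.69 to 5.24 in A-59 and 1.55 to 4.48 in B-20. Dtx4 was at 4.81 to 18.6 CPM in parental cells, 0.610 to 2.04 in A-59 and 0.303 to 2.35 in B-20. Among other genes of this family and pathway, picked after values were seen, Dtx2 (62.9 to 67.4 CPM in parental and 52.0 to 87.6 in mutant libraries) and Dtx3 (37.9 to 40.7 and 24.3 to 50.5) overlapped between parental and mutant cells. Notch1 itself, at 26.2 to 40.0 CPM in parental cells, was higher in all 12 mutant libraries, at 67.5 to 177 CPM in A-59 and 49.1 to 81.7 in B-20. Notch2 overlapped, at 125 to 207 and 124 to 202 CPM.

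Rnf43, a membrane ubiquitin ligase that removes Frizzled receptors and so dampens Wnt signalling, was at 34.7 to 61.0 CPM in parental cells, 8.59 to 13.4 in A-59 and 5.09 to 10.9 in B-20. Its paralog Znrf3, with the same role, overlapped (18.9 to 38.8 CPM in parental and 18.6 to 35.9 in mutant cells). Plxna1, a plexin receptor for semaphorins, was at 2.76 to 5.35 CPM in parental cells, 0.360 to 1.001 in A-59 and 0.699 to 1.30 in B-20. Nrp2, a neuropilin that serves plexins as coreceptor and was also picked after values were seen, lay at 2.43 to 8.74 CPM in parental cells and at 63.0 to 127 in A-59 and 64.0 to 156 in B-20, all above the parental range. Igfbp5, a secreted binding protein of insulin-like growth factors, and Egfl6, a secreted EGF-repeat protein, were at 2.36 to 25.3 CPM and 8.78 to 17.1 CPM in parental cells and at most 0.954 and 0.533 CPM in a mutant library.

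Another channel gene besides Kcnk3 was Ryr2. It encodes the ryanodine receptor that releases calcium from the endoplasmic reticulum, and was at 2.32 to 3.41 CPM in parental cells and had 1 read over the 6 A-59 libraries but 36 over those of B-20. Ryr1, picked after values were seen, drew more reads in parental cells (27.7 to 60.3 CPM) and overlapped in part with the mutants (16.1 to 32.3 CPM).

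Of the genes of adhesion and the cytoskeleton, Itgb3 (chr11:104608000-104670476) encodes the integrin beta 3 chain, which pairs with alpha V or alpha IIb. It measured 32.0 and 35.9 CPM at 0 h, 37.0 and 39.2 at 6 h, then 37.8 and 38.8 at 18 h in parental cells. A-59 lay between 0.231 and 0.742 CPM (median 0.474) and B-20 between 0.300 and 1.86 (median 1.06). Its partner Itgav, picked after values were seen, overlapped, at 24.9 to 34.8 CPM in parental cells and 17.2 to 32.9 in the mutants, and so did Itga2b (2.503 to 6.42 and 1.76 to 5.65 CPM). This covers its alpha partners only and says nothing of other integrin chains. Kifc3, a minus-end directed kinesin, was at 9.47 to 101 CPM in parental cells and at most 1.33 CPM in the mutants. Arhgap20 (chr9:51765351-51853059), a GTPase-activating protein, and Myo18b, an unconventional myosin, were at 2.18 to 5.53 and 1.78 to 4.78 CPM in parental cells and at most 0.692 and 0.612 CPM in the mutants.

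Ighg3 and Iglc1 encode the constant regions of the IgG3 heavy and the lambda 1 light chain, while the line's own receptor is an IgM. Ighg3 was at 11.1 to 36.4 CPM in parental cells, 0.559 to 2.96 in A-59 and 0.182 to 1.05 in B-20. Of the other downstream constant regions, Ighg1 reached 3.21 CPM in parental and 0.250 in mutant libraries, and Ighg2b, Ighg2c and Igha were below 1 CPM everywhere. Iglc1 was at 3.84 to 7.78 CPM in parental and 0.122 to 0.699 CPM in mutant libraries. Iglc3, the nearest expressed gene to Iglc1, was at 23.7 to 32.5 CPM in parental cells and also below that range in all mutant libraries (9.28 to 19.8 CPM), whereas Iglc2 overlapped (128 to 225 and 119 to 180 CPM). The Iglc1 transcripts share 74.8% of aligned bases with Iglc3 and 85.0% with Iglc4, so short reads from conserved stretches may be hard to place.

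Tent5c, a poly(A) polymerase known for stabilising immunoglobulin mRNA in plasma cells, was at 2.49 to 20.3 CPM in parental cells and 0.218 to 1.12 CPM in the mutants. Prnp, the prion protein, was at 2.63 to 7.19 and 0.111 to 1.04 CPM. Pgbd5, a domesticated piggyBac transposase, was at 31.4 to 66.9 and 8.67 to 13.4 CPM. Ovol1, a zinc finger repressor of epithelial cells, was at 10.2 to 16.7 and 0.0607 to 1.58 CPM. Of the remaining protein-coding members, Ankrd61 (an ankyrin repeat protein), Car13 (a cytosolic carbonic anhydrase), Rbbp9 (a serine hydrolase), Spata17, 1700019D03Rik and 2900026A02Rik ranged from 1.25 to 18.5 CPM in parental cells and from 0 to 4.95 CPM in the mutants. The other non-coding members were AI838599, Gm41386, Gm31166, Gm2420 and Gm15508.

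11 of the 45 members lay within 500 kb of another member, in 5 places of the genome. Besides Tmem161b and A230107N01Rik, these were Spata17 with Gm43497 and Gm15508, which both lie inside Spata17 on the same strand; Ovol1 and Gm31166, on opposite strands with 6.49 kb between them; Prickle1 and Gm41386, 109 kb apart; and Myo18b and 2900026A02Rik, 190 kb apart (distances from GENCODE on GRCm39). Members that overlap share reads or lose them as ambiguous, so the 3 genes at Spata17 are not independent. Grk3, the only expressed gene between Myo18b and 2900026A02Rik, was at 30.1 to 65.1 CPM in parental cells, 16.4 to 36.7 in A-59 and 8.39 to 22.6 in B-20.

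The genes next to the members were then examined. The nearest genes on each side with at least 1 CPM in all parental libraries were 85 genes, of which 6 were members themselves. That none of the other 79 met the rule was fixed by the choice, since genes that met it were members unless left out by name. The median log2 difference of the 79 from parental cells (CPM plus 0.1) was -0.18 in A-59 and -0.04 in B-20. 3 of the 79 had a mean below 50% of the parental mean in both clones: Gm49223 within Tmem161b, Slc44a1 (132 kb from Gm12495; 10.1 to 17.3 CPM in parental cells and 2.98 to 5.60 in the mutants) and Tns1 (1035 kb from Igfbp5; 15.2 to 17.7 and 1.27 to 9.39 CPM). The share of all genes with such means was not counted. Pou2af2 beside Arhgap20 was also below the parental range in all mutant libraries (153 to 229 and 64.5 to 131 CPM). So were Iglc3, Myl4 beside Itgb3 (8.12 to 13.7 and 2.83 to 7.58) and Cd9 beside Vwf (8.11 to 11.7 and 0.953 to 5.70 CPM). Most of the 79 overlapped between parental and mutant cells. At Vps45, Plekho1 lies 3.45 kb away and overlapped between parental (82.3 to 143 CPM) and mutant cells (42.6 to 133 CPM). At Rnf43, Supt4a lies 1.98 kb away and overlapped as well (23.1 to 40.4 and 20.1 to 39.2 CPM).

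**Figure D3:**
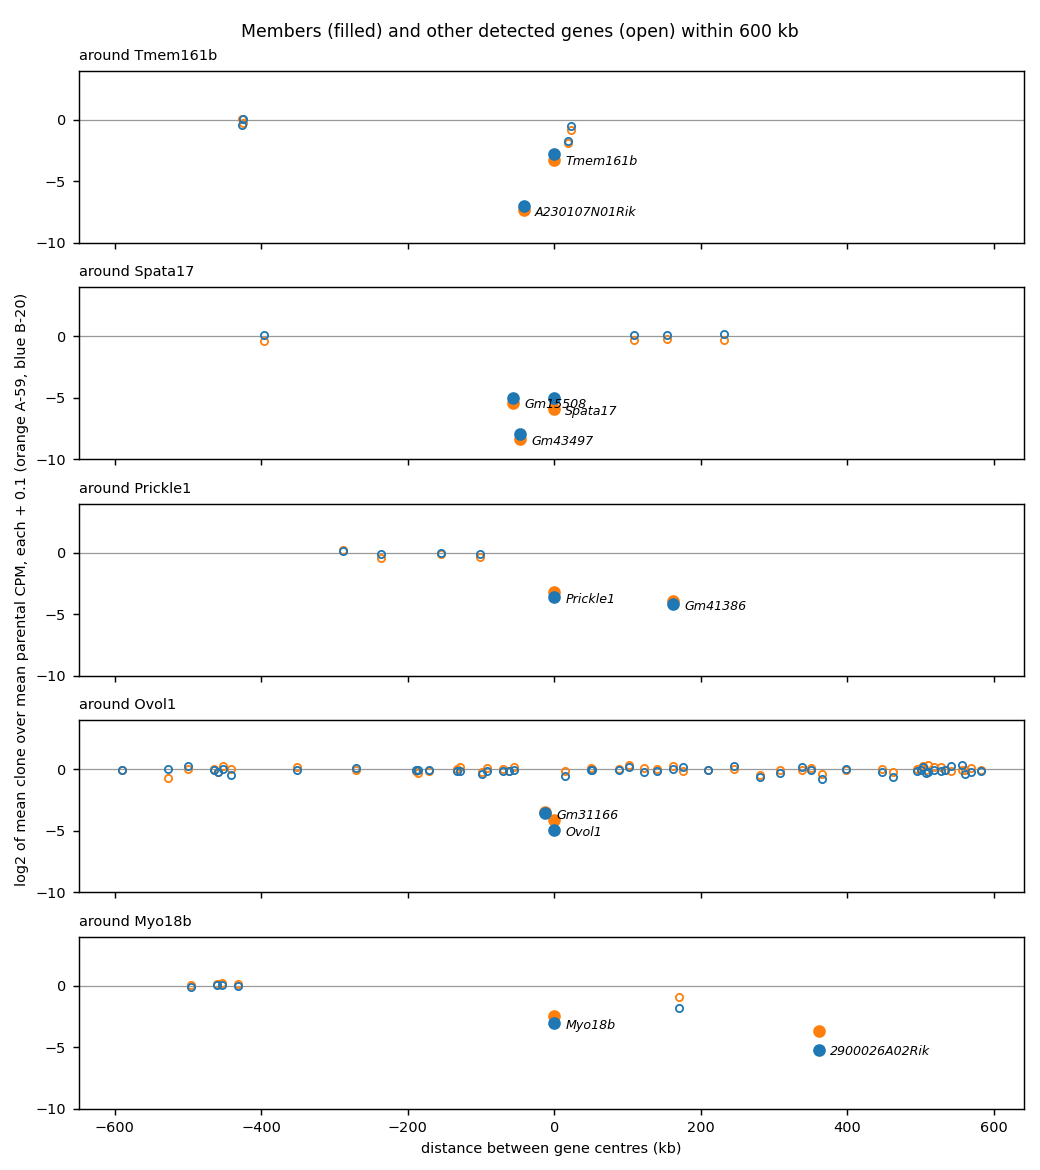
Genes within 600 kb of Tmem161b, Spata17, Prickle1, Ovol1 and Myo18b, plotted by the distance between gene centres (kb) against the log2 ratio of mean clone to mean parental CPM, each plus 0.1. Filled points are members and open points other genes with at least 1 CPM in all parental or all mutant libraries, with A-59 in orange and B-20 in blue. All members shown lie below their neighbours, while most neighbours lie near 0, apart from Gm49223 (-1.88 and -1.74) beside Tmem161b and Grk3 (-0.91 and -1.82) beside Myo18b.

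Counting did not use strand, so reads of genes that overlap on opposite strands cannot be told apart. 29 members overlap another annotated gene, and for 13 of them an overlapping gene had at least 1 CPM in all parental libraries. Of these partners that are not members, Eif2ak1 (over Ankrd61), Sec23b and Polr3f (over Rbbp9), Hibch (over 1700019D03Rik), Pisd (over Gm2420) and Gpatch2 (over Spata17) had parental and mutant ranges that overlapped. Others were below the parental range in all mutant libraries. Over Tmem161b these were Gm49223 and Gm46432 (24.1 to 26.7 CPM in parental and 9.56 to 21.9 in mutant libraries). Over Kcnk3 it was Gm9899 (8.05 to 10.8 and 3.18 to 7.84 CPM). Gm2420 resembles the centrosomal gene Sfi1 at 93.1% of aligned bases over its whole length, and Sfi1 stood at 409 to 580 CPM in parental and 420 to 597 CPM in mutant libraries, so the level of Gm2420 (5.95 to 11.8 and 0.966 to 1.85 CPM) is uncertain. Gm15508 resembles the ribosomal protein gene Rpl31 at 77.7%, and the 6 closest matches of Gm31166 were all below 1 CPM.

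The anti-IgM response of the parental cells was not itself a condition of the choice. The parental libraries at 6 h and 18 h did count towards the lowest parental value that the rule used. Shares, directions and medians of the response are therefore not independent of the choice. The response was tested across 15318 genes with the quasi-likelihood test of edgeR. Calls were made at a Benjamini-Hochberg adjusted p below 0.01 and a log2 fold change beyond 1 in either direction. All 45 members were among the genes tested. At 6 h, 11 of the 45 (24.4%) were called, compared with 2.62% of all genes tested and 2.30% of the 11528 genes the members were drawn from. 9 rose (with 1.17% of all genes) and 2 fell (4.44%, with 1.46%). The median log2 change was 0.18 over the members and 0.01 over all genes. The count was 9 with DESeq2, and it fell to 5 without parental 0 h replicate 2, to 6 without parental 6 h replicate 1 and to 7 without parental 6 h replicate 2.

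Kifc3 rose most, from 9.47 and 10.5 CPM at 0 h to 99.7 and 101 at 6 h, a log2 fold change of 3.31 ± 0.17 (standard error; edgeR, adjusted p = 9.78e-10), and was back at 14.3 and 17.4 CPM at 18 h. Ighg3 rose from 12.3 and 11.1 to 36.4 and 34.7 CPM (1.57 ± 0.15, adjusted p = 6.00e-07), with 15.8 and 18.5 CPM at 18 h. Irs2 rose from 160 and 162 to 377 and 410 CPM (1.26 ± 0.12, adjusted p = 5.66e-07). These 3 calls held under all 23 alternative settings and left-out libraries. In each, both 6 h libraries lay above both untreated libraries with a wide gap.

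Tent5c rose from 9.21 and 7.90 to 20.3 and 19.1 CPM (1.17 ± 0.20, adjusted p = 4.07e-04) and Prnp from 3.08 and 2.63 to 6.83 and 7.19 CPM (1.26 ± 0.27, adjusted p = 3.26e-03). Myo18b rose from 1.78 and 1.89 to 4.37 and 4.78 CPM (1.29 ± 0.24, adjusted p = 1.13e-03). Dtx4 (1.05) and Pgbd5 (1.0, from 33.8 and 31.4 to 66.2 and 66.9 CPM) passed close to the fold threshold. Prnp and Myo18b lost their calls when any 1 of the 4 libraries compared was left out, and Pgbd5, at the threshold itself, in 16 of 23 alternatives. Dtx4 lost its call without parental 0 h replicate 2 or either 6 h replicate, and Tent5c without parental 0 h replicate 2.

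Of the 2 members that fell at 6 h, Igfbp5 (chr1:72858065-72874865) went from 9.87 and 13.4 CPM to 2.36 and 4.28 CPM (fell by 1.82 on the log2 scale, standard error 0.25, edgeR adjusted p = 4.41e-05), a call that held in all alternatives.

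At 18 h, 6 of the 45 members were called (13.3%), close to the 10.3% of all genes tested. 4 rose (8.89%, with 5.56% of all genes) and 2 fell (4.44%, with 4.75%). The median log2 change of the members was 0.48, compared with 0.04 over all genes. DESeq2 called 4, and 3 were called without parental 18 h replicate 2. With the adjusted p alone and no fold threshold, 16 of the 45 members were higher, a larger share than the 16.4% of all genes. Only 3 of the 45 were lower, a smaller share than the 16.2% of all genes. As stated above, such shares are not independent of the choice.

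The uncharacterised gene 2900026A02Rik rose in steps, with 1.96 and 3.37 CPM at 0 h, 4.59 and 5.69 at 6 h, then 11.2 and 12.9 at 18 h (log2 fold change at 18 h 2.19 ± 0.25, edgeR adjusted p = 1.19e-06), and held its call in all alternatives. Igfbp5, low at 6 h, stood at 23.5 and 25.3 CPM at 18 h, above both untreated libraries (1.08 ± 0.22, adjusted p = 6.27e-04). Gm41386 went from 1.63 and 1.19 to 3.92 and 3.52 CPM (1.38 ± 0.30, adjusted p = 1.37e-03), and Arhgap20 from 2.18 and 2.55 to 4.54 and 5.53 CPM (1.11 ± 0.27, adjusted p = 2.31e-03), with 3.52 and 5.40 CPM at 6 h. Both lost their calls without parental 18 h replicate 2, as did Igfbp5. Gm41386 also lost its call without parental 0 h replicate 2 or 18 h replicate 1, Arhgap20 without either 0 h replicate and Igfbp5 without parental 0 h replicate 1.

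Tent5c, high at 6 h, stood below the untreated level at 18 h with 2.49 and 3.88 CPM (fell by 1.38, standard error 0.23, adjusted p = 9.87e-05), again in all alternatives. The 6 h and 18 h changes share the untreated libraries.

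20 of the 45 members (44.4%) had both parental 18 h libraries above the other 4, compared with 33.8% of the 11528 genes. Among them were Tmem161b, A230107N01Rik, Vps45, Radx, Gm43497, Gm12495, Macc1, Spata17 and Prickle1, with 18 h means of 1.32 times (Macc1) to 1.83 times (A230107N01Rik) their 0 h means. Their change at 6 h was small, with log2 values between -0.15 (Macc1) and 0.20 (Spata17).

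**Figure D4:**
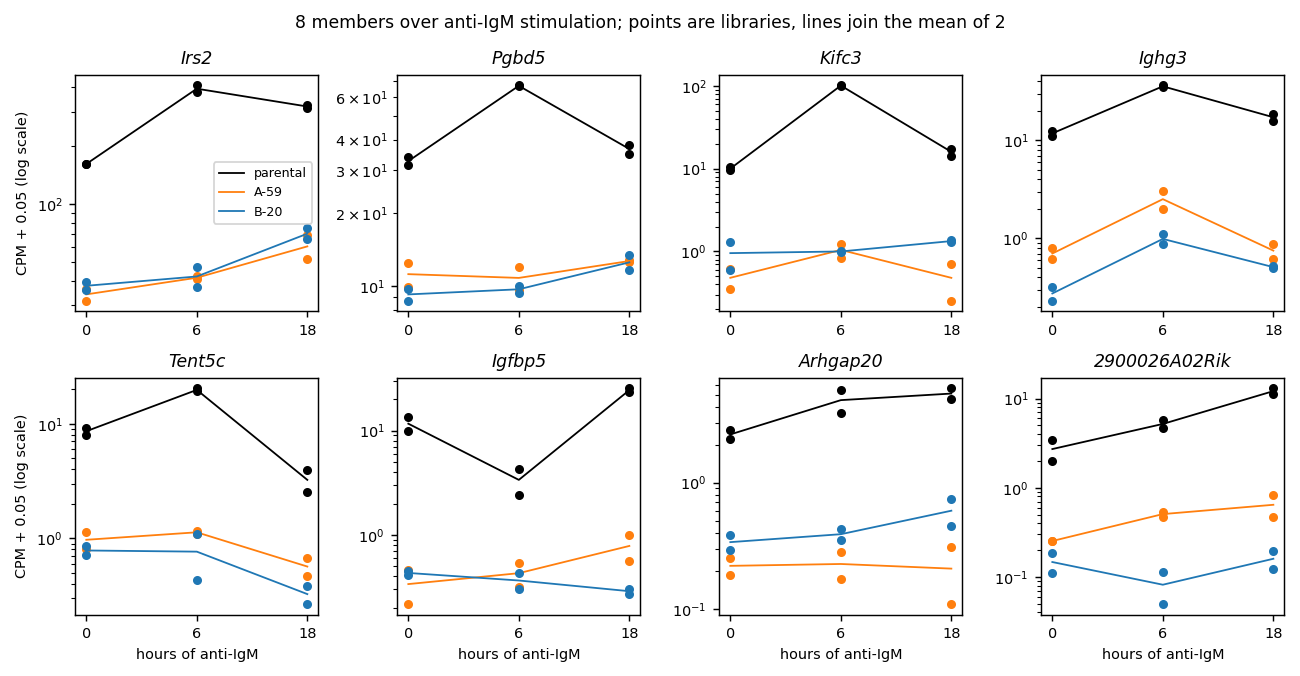
CPM plus 0.05 (log scale, with its own range in each panel) of 8 members at 0, 6 and 18 h of anti-IgM. Points are libraries and lines join the means of 2 libraries, for parental cells (black), A-59 (orange) and B-20 (blue). Kifc3, Pgbd5, Ighg3 and Tent5c peak at 6 h in parental cells, Igfbp5 dips at 6 h, and 2900026A02Rik climbs to 18 h, while the mutant lines lie below throughout.

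Only 14 members had 10 or more reads in every mutant library, and 11 had 0 reads in at least 1 of them, so the response within the clones could be followed for a minority. In A-59, 4 of 45 members (8.89%) were called at 6 h, with 1.39% of all genes, and 3 (6.67%) at 18 h, with 8.76% of all genes. In B-20, 0 of 45 were called by edgeR at 6 h, with 0.385% of all genes, and DESeq2 called 2 (Dtx1 and Dtx4). By edgeR 6 members had an unadjusted p below 0.05, but the share of all genes at that level was not counted, so this is no result. Without A-59 6 h replicate 1 or 2, edgeR called 1. At 18 h 2 members (4.44%) were called in B-20, with 4.80% of all genes.

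Trib2 fell in A-59, from 10.4 and 8.80 CPM at 0 h to 4.27 and 4.10 at 6 h, then 3.08 and 3.46 at 18 h (fell by 1.23 and 1.55, adjusted p = 1.14e-04 and 1.88e-06 by edgeR). Its change in B-20, from 16.1 and 12.9 to 9.89 and 8.26 and to 10.2 and 7.45 CPM, had log2 values of -0.68 and -0.75 and was not called. Ighg3 rose at 6 h in A-59, from 0.742 and 0.559 to 2.96 and 1.96 CPM (1.88 ± 0.26, adjusted p = 1.12e-04). It was also among the 9 that rose in parental cells. Ovol1 rose from 0.371 and 0.254 to 1.58 and 0.796 CPM (1.90 ± 0.42, adjusted p = 5.39e-03). Without A-59 0 h replicate 1, 0 h replicate 2 or 6 h replicate 1, 2 members were called in place of 4, and Ovol1 was among those lost each time (1.24 without the last).

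At 18 h in A-59, Ankrd61 rose from 2.12 and 1.98 to 4.57 and 4.95 CPM (1.21 ± 0.22, edgeR adjusted p = 2.40e-04), in all alternatives, and Gm31166 from 1.15 and 1.02 to 2.88 and 1.97 CPM (1.17 ± 0.27, adjusted p = 1.84e-03). Gm31166 lost its call without either A-59 0 h library or A-59 18 h replicate 1. In B-20 at 18 h, 1700019D03Rik went from 0.533 and 0.485 to 0.0728 and 0.185 CPM, which is 8 reads in each 0 h library and 2 and 5 reads at 18 h (fell by 1.96, standard error 0.55, adjusted p = 0.00985), a call lost in 15 of 23 alternatives. In the main fit this member passed the filter on low counts only through the parental libraries, so no change within B-20 is drawn from it. The B-20 count at 18 h was 0 without B-20 0 h replicate 2 or B-20 18 h replicate 1, and 1 without either parental 0 h library, either parental 6 h library, either A-59 18 h library, B-20 0 h replicate 1 or either B-20 6 h library.

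The response of each clone was then set against the parental one, as the difference of their log2 changes in the same fit. At 6 h, 2 members (4.44%) differed in A-59, with 0.339% of all genes, and 2 in B-20, with 0.131% of all genes, all in the direction of a smaller rise in the clone. The rule capped the 6 h level of the clones but not that of the parental cells. The calls, their direction and these shares are therefore not independent of the choice, and no conclusion is drawn from them. Irs2 went from 36.6 and 31.7 CPM to 42.5 and 40.8 at 6 h in A-59 and from 39.8 and 35.9 to 47.3 and 37.2 in B-20. The log2 responses of 0.25 and 0.15 were below the parental 1.26 by 1.02 ± 0.17 in A-59 (edgeR adjusted p = 3.30e-03) and by 1.11 ± 0.17 in B-20 (adjusted p = 3.08e-03). At 18 h the log2 response of Irs2 was 0.83 in A-59, with levels of 68.9 and 52.0 CPM, 0.86 in B-20, with 74.8 and 65.8 CPM, and 0.99 in parental cells, and the differences of -0.16 and -0.12 were not called (standard error 0.17 for each).

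Pgbd5 went from 12.4 and 9.86 to 11.97 and 9.55 CPM at 6 h in A-59 and from 9.72 and 8.67 to 9.34 and 9.98 in B-20. Its 6 h response was below the parental response by 1.09 ± 0.18 in A-59 (edgeR adjusted p = 2.93e-03), while the difference of -0.94 ± 0.19 in B-20 was not called (adjusted p = 0.022). Kifc3 went from 1.27 and 0.546 to 0.949 and 0.953 CPM in B-20, a response below the parental response by 3.23 ± 0.47 (adjusted p = 2.25e-03). In A-59 it went from 0.303 and 0.559 to 1.19 and 0.796 CPM, and the difference of -2.02 ± 0.50 was not called by edgeR (adjusted p = 0.046) but was by DESeq2. These levels of Kifc3 at 0 h and 6 h rest on 9 to 31 reads a library. The 4 calls compare with the same parental libraries. Both calls in A-59 were lost without any 1 of the parental 0 h or 6 h libraries, A-59 0 h replicate 1 or A-59 6 h replicate 2, and that of Irs2 also without A-59 0 h replicate 2. In B-20 Irs2 lost its call without any 1 of the parental 0 h or 6 h libraries, either 0 h library of B-20 or B-20 6 h replicate 2, and Kifc3 without parental 0 h replicate 2, B-20 0 h replicate 1 or either 6 h library of B-20. With 1 of these libraries left out, 0 or 1 members were called in place of 2.

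At 18 h no member differed in its response by edgeR in either clone, with 0.0326% of all genes called in A-59 and, for B-20, 0.163%. An unadjusted p below 0.05 by edgeR was found for 6 members in A-59 and for 15 in B-20, and DESeq2 called 0 and 1 (Tmem161b in B-20). Of those below 0.05, 4 in A-59 and 13 in B-20 had a lower response than the parental cells. The rule capped the clones at 18 h as well, and the share of all genes below 0.05 was not counted. No conclusion is drawn from these counts. Tmem161b rose by 0.77 on the log2 scale at 18 h in parental cells and stood at 47.1 and 48.5 CPM at 18 h in B-20, compared with 59.9 and 52.5 at 0 h, a difference of -1.04 by edgeR (adjusted p = 0.067). It was called without A-59 6 h replicate 1 or 2.

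The clones were compared with each other at each time, which the rule did not use. At 0 h, 3 of 45 members (6.67%) were called, with 3.85% of all genes, at 6 h 7 (15.6%), with 5.82%, and at 18 h 4 (8.89%), with 4.82%. In some of these calls the compared groups alone did not pass the filter on low counts. This holds for all calls at 0 h, for Ryr2 and 2900026A02Rik at 6 h and for 2900026A02Rik at 18 h. No conclusion is drawn from these shares. Trib2 and AI838599 differed at 18 h in all alternatives. Over all 6 libraries, Tmem161b and Ryr2 were lower in every A-59 than in every B-20 library (2 of 45, or 4.44%, with 2.85% of the 11528 genes), and AI838599, 2900026A02Rik, Prickle1 and Rbbp9 were higher (4 of 45, or 8.89%, with 4.56%). The median member stood at 6.65% of its parental median in A-59 and at 6.13% in B-20.

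AI838599, a long non-coding RNA, was called at all 3 times, with lower values in B-20 than in A-59, and the call at 18 h held in all alternatives. Its parental libraries held 3.01 and 3.21 CPM at 0 h, 3.66 and 3.12 at 6 h, then 3.39 and 3.83 at 18 h. In A-59 they were 0.371 and 1.42, 1.08 and 0.980, and 0.977 and 1.31 CPM, and in B-20 0.133 and 0.0607, 0.250 and 0.191, and 0.0728 and 0.0371 CPM. The log2 differences were -3.03, -2.16 and -4.26 (edgeR adjusted p = 8.10e-03, 8.04e-03 and 1.23e-04). They rest on 14 reads over the 6 B-20 libraries and 124 over those of A-59. The call at 0 h, where the compared groups alone did not pass the filter, was lost in 11 of 22 alternatives, and the call at 6 h in 10 of 23. Both were lost without any 1 of the parental libraries and either B-20 6 h library. The former was also lost without either B-20 0 h library or A-59 0 h replicate 2, where the difference was -1.89, and the latter without A-59 6 h replicate 1.

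2900026A02Rik was called at 6 h and 18 h, but passed the filter only through the parental libraries, so its values are given as a description. It measured 0.202 and 0.203 CPM at 0 h, 0.423 and 0.490 at 6 h, then 0.771 and 0.418 at 18 h in A-59, and 0.133 and 0.0607, 0 and 0.0636, and 0.146 and 0.0741 CPM in B-20, with 51 and 10 reads in all. Its calls were lost without A-59 6 h replicate 1 or either B-20 6 h library (at 6 h) and without A-59 18 h replicate 1 or either B-20 18 h library (at 18 h). Trib2 was higher in B-20 at 6 h by 1.15 ± 0.18 and at 18 h by 1.39 ± 0.18 on the log2 scale (adjusted p = 8.59e-05 and 1.56e-05 by edgeR), with no overlap of the libraries at either time. At 6 h Ighg3 (77 and 32 reads in A-59, with 21 and 13 in B-20) and Ovol1 (41 and 13, 7 and 7) were lower in B-20, and at 18 h Kifc3 (4 and 11, 34 and 36) was higher. These 3 calls were lost without A-59 6 h replicate 1 (Ighg3 and Ovol1, with log2 differences of -1.02 and -0.99) or A-59 18 h replicate 1 (Kifc3, 0.93), and when the compared groups alone were fitted. Ovol1 and Kifc3 also lost theirs without either B-20 library of that time, Ovol1 without either parental 18 h library, and Kifc3 without any 1 of the parental 0 h, parental 6 h or B-20 6 h libraries. The remaining calls, of Ryr2 at 6 h (0 and 0 reads in A-59, with 5 and 8 in B-20) and of 1700019D03Rik (1 and 2, 8 and 8) and Spata17 (1 and 1, 5 and 6) at 0 h, are of members that passed the filter on low counts only through the parental libraries, and no difference between the clones is drawn from them. The count at 0 h was 0 without either B-20 0 h library, and 1 without any 1 of the parental libraries, either A-59 0 h library or either B-20 6 h library. The count at 6 h was 1 without A-59 6 h replicate 1 and 3 without B-20 6 h replicate 2, and the count at 18 h was 2 without A-59 18 h replicate 1 or either B-20 18 h replicate.

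**Figure D5:**
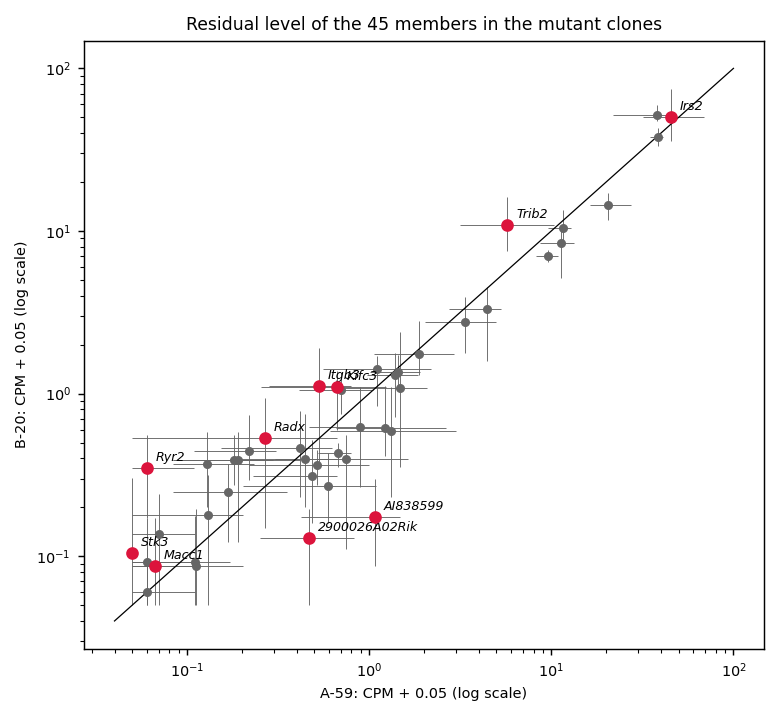
Mean level of each member in the 6 A-59 libraries (horizontal) and the 6 B-20 libraries (vertical), as CPM plus 0.05 on log scales, with bars from the lowest to the highest library and the line of equality. Named members are in red. AI838599 and 2900026A02Rik lie below the line, Ryr2 and Trib2 above it, and Irs2 near it, with under 10 reads of Ryr2 in any mutant library.

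The members were set against 19 gene lists on TFEB, B cells and signalling. The list of integrins and adhesion held 1 (Itgb3, of 29 genes at 1 CPM or more in all parental libraries) and that of small GTPase regulators 1 (Arhgap20, of 64). The other lists held 0. The lists contain neither the 5 genes left out by name, of which some belong to TNF receptors, cell death or BMP signalling, nor the channel genes Kcnk3 and Ryr2. The members were 0.390% of the 11528 genes, so a list of this size with no member, such as those of 53 lysosomal and 40 autophagy genes, is no result about that list.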

How the data were processed

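RNA of 18 cultures of WEHI-231 cells was sequenced from non-stranded libraries with single-end reads. Per the labels and the submitters' processing notes, the authors used bcl2fastq (2.20.0.422), STAR (2.5), GRCm38 and featureCounts (1.5.0-p1), and deposited whole-number counts of reads per gene, not normalized. The study describes the libraries of a group as independent experiments. The p-values rest on the spread between such libraries within groups, estimated over all 9 groups in 1 fit. Groups were taken from the sample labels.

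CPM (counts per 1000000) was computed from the library totals, which are sums over all genes of a file. Totals were 11223588 to 29655262, so 3 counts, the limit that a count of 0 allows, was 0.101 to 0.267 CPM. Symbols came from GENCODE by gene ID (93.2% matched) and GRCm38 coordinates from RefSeq by symbol (41 of 45 members). Distances used GENCODE on GRCm39. Responses were tested with edgeR (4.0.16, R 4.3.3): filterByExpr (15318 genes kept), TMM scaling, a robust quasi-likelihood fit with 9 group means over all libraries and Benjamini-Hochberg adjustment over all genes, with calls at an adjusted p below 0.01 and a log2 fold change beyond 1. The code was tested on simulated data. Alternatives were DESeq2 (1.42.0), its size factors, no filter, a replicate block, the compared groups only, leaving out each library, and other cut-offs of the rule. Sequences were compared with blastn (2.17.0).

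The members and gene lists were chosen with earlier results of these data known. Results of 2 members and of some other genes are not reported here, though they are included in the counts. The other members are named; values in each parental library, with ranges or values in the clones, were given for the 10 with the highest mean parental CPM, those called in parental cells or in an interaction, those called between clones at 2 or more times, those in a gene list, those just inside the threshold and the 5 with the lowest ratios.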

Additional observations from a re-analysis of the deposited data

Results flagged for a closer look

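4 results were marked because the response to anti-IgM differed between parental cells and a clone by a test of the difference itself. The 6 h response of Irs2 was lower by 1.02 in A-59 (a log2 difference of -1.02) and by 1.11 in B-20 (-1.11). That of Pgbd5 differed by -1.09 in A-59 and that of Kifc3 by -3.23 in B-20. With 1 library left out the differences ranged from -1.11 to -0.92 for Irs2 in A-59, from -1.28 to -0.98 for Irs2 in B-20, from -1.28 to -0.91 for Pgbd5 and from -3.72 to -2.55 for Kifc3, so the direction held, while each call was lost without at least 1 library. Their direction was not independent of the choice, since the rule capped the 6 h level of the clones. Their cause was not tested. Groups of 2 libraries are too small for a check for single outlying samples.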

How the results depend on the processing

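The rule gave 45 genes with TMM-scaled CPM as well, the same 45, 76 with the ratio raised to 2/3 and 45 to 50 without 1 library. Of 44 single calls, 11 held in every alternative and none reversed. With DESeq2, 2 members were called in B-20 at 6 h (0 by edgeR), 1 in B-20 at 18 h (2), 1 between clones at 0 h (3) and 1 for another response in B-20 at 18 h (0). With no filter, 4 were called in B-20 at 6 h and 1 for another 18 h response of B-20. Fitting the compared groups alone, 0 were called in A-59 at 6 h (4), 0 in B-20 at 18 h, 1 between clones at 6 h (7), 2 between clones at 18 h (4), 0 for another response in A-59 at 6 h (2) and 1 for that in B-20 at 18 h. The causes were not tested.

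Without 1 library, the counts ranged from 5 to 11 (parental, 6 h), 3 to 6 (parental, 18 h), 2 to 4 (A-59, 6 h), 2 to 4 (A-59, 18 h), 0 to 1 (B-20, 6 h), 0 to 2 (B-20, 18 h), 0 to 4, 1 to 9 and 2 to 5 (clones at 0, 6 and 18 h), and, for another response, 0 to 2 (A-59, 6 h), 0 to 0 (A-59, 18 h), 0 to 2 (B-20, 6 h) and 0 to 1 (B-20, 18 h). An arm left with 1 library was assumed to vary like the other groups.

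The main fit did not pair libraries by replicate number, and whether the numbers mark shared experiments is not settled. Deviations of same-numbered libraries correlated above 0.1 in 14 of 36 pairs of groups, with a median of 0.08 and a range of -0.03 to 0.32. With the number as a replicate block, 11 members were called in parental cells at 6 h and 6 at 18 h, as without it, 1 in B-20 at 6 h and 1 in B-20 at 18 h. Most members had under 10 reads in some mutant library, which limits what could be seen of their response there.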
